A study of Homo sapiens with 6 samples.

Results

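The nuclear-encoded subunits of the mitochondrial respiratory chain and ATP synthase were described in an erlotinib-resistant derivative of HN5, a cell line of a human squamous carcinoma of the head and neck, and in its parental line. Members were the genes whose platform symbol begins with NDUF followed by A, B, C, S or V and digits, the genes SDHA to SDHD, and those whose symbols begin with UQCR, with COX4 to COX8, or with ATP5F1, ATP5M or ATP5P. This gave 82 genes on 110 probes, out of 20046 genes with a named probe. Each gene was read from its probe with the highest mean over the 6 arrays. Of the 82 members 35 belong to complex I, 3 to complex II, 9 to complex III, 17 to complex IV and 18 to complex V, and 2 of them, UQCRBP1 and ATP5F1EP2, are annotated as pseudogenes.

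Total RNA was measured on 3 arrays of resistant HN5 and 3 arrays of parental HN5. Resistant cells had been grown in rising erlotinib, an inhibitor of the epidermal growth factor receptor kinase, over 3 months up to 12.5 µM, and then kept at 12.5 µM for 6 months. Parental cells are labelled erlotinib sensitive, and the labels do not say whether drug was present when either line was harvested. The resistant arrays measure a single derived line, so resistance, drug exposure and months of separate culture cannot be told apart. The labels call the replicates biological and do not say whether each was a culture of its own; if not, the p-values cover only technical spread.

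The respiratory chain passes electrons from NADH and succinate through complexes I to IV to oxygen, and pumps protons across the inner mitochondrial membrane. Complex V, the ATP synthase, lets protons flow back and makes ATP. Nuclear genes encode most of the subunits, and mitochondrial DNA encodes a few core subunits of complexes I, III, IV and V, which were not analysed here. Squamous carcinoma cells use both this route and glycolysis for ATP.

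Most of the tested subunits sat within a narrow band of change, and those that passed the test were mainly lower in resistant cells. The background limit was the mode of an array's values plus 3 SD of the values below it, which came to 6.996 to 6.997 on the log2 scale. By this limit 73 members were above background on all 6 arrays and were tested, and 9 were not; a gene was tested if at least 3 of 6 arrays were above the limit. Over all 11065 tested genes 54.0% were called in either direction (limma, Benjamini-Hochberg adjusted p under 0.05), 26.6% rose and 27.5% fell. Of the 73 tested members 33 were called (45.2%). Of these 6 rose (8.22%) and 27 fell (37.0%). The median log2 change was -0.07 over the members and -0.01 over all tested genes. Groups did not overlap for 7 members that were higher and 25 that were lower in resistant cells, where 29.2% of all tested genes were higher and 30.7% lower without overlap. Without parental replicate 3 the count of rises was 3. In bulk RNA fewer cells of a kind and less RNA per cell cannot be told apart.

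Sizes were small. Of the 33 called members 17 moved by under 1.2-fold, 14 by 1.2-fold to under 1.5-fold and 2 by 1.5-fold or more. The share under 1.2-fold was 51.5% of the called members, against 32.2% of all called genes. Of the called members 0 reached 2-fold, where 3.27% of all tested genes were called at 2-fold or more. The 2 largest changes were a rise of NDUFS4 and a fall of ATP5MK. The members had a median level of 11.21 on the log2 scale in both groups, well above the background limit. For the 40 members that did not pass, the 95% confidence intervals of the difference lay between -0.33 and 0.30 on the log2 scale.

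**Figure D1:**
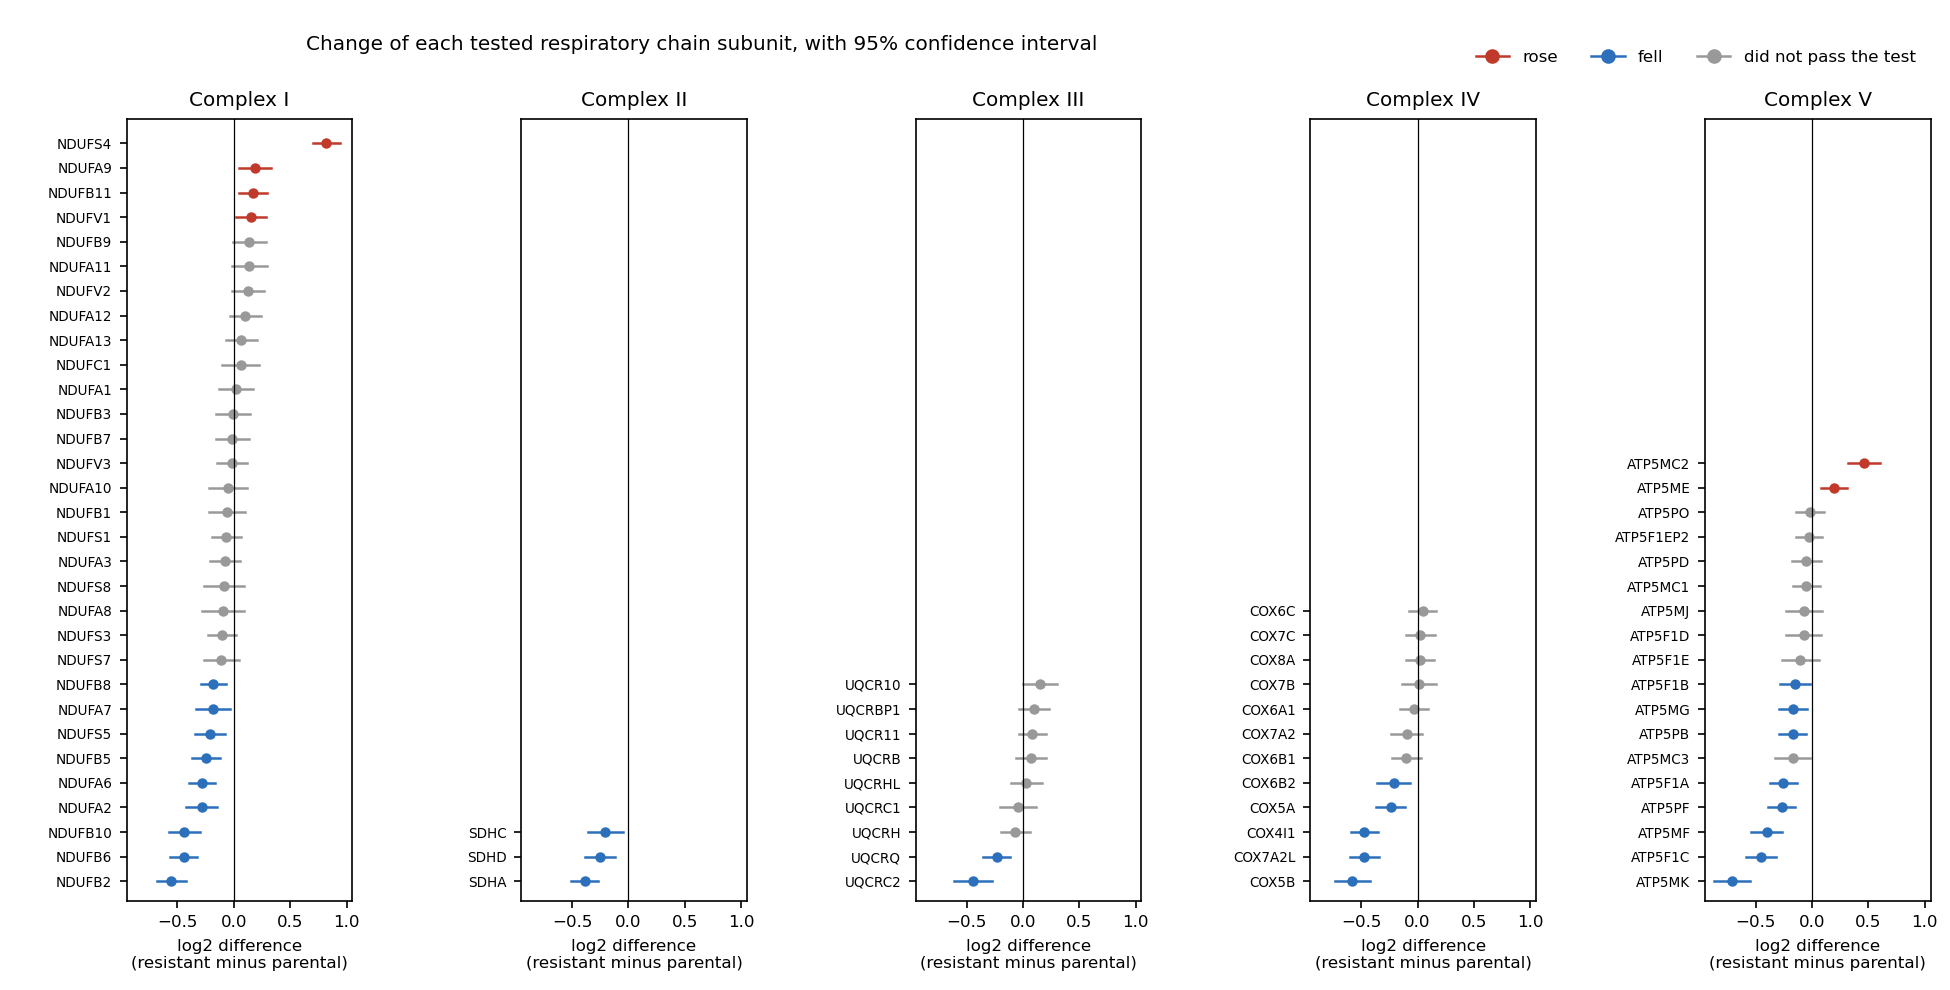
Log2 difference (resistant minus parental, x axis) of each of the 73 tested members with its 95% confidence interval, in 1 panel per complex, ordered by size; red points rose, blue points fell and grey points did not pass the test. NDUFS4 stands at 0.82 and ATP5MK at -0.71, and the remaining members lie between -0.58 and 0.46.

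Markers of cell identity moved between the same groups. The 5 squamous epithelial markers with a probe (KRT5, KRT14, CDH1, EPCAM and SFN) were above background on all arrays and fell, with a summed linear signal of 14786 to 15737 on resistant and 23329 to 25341 on parental arrays. Of 8 fibroblast markers 4 were tested and were higher in resistant cells, 3 of them (DCN, LUM and COL1A2) being tested because the resistant arrays alone were above background, with a summed signal of 1915 to 1933 on resistant and 991 to 1009.8 on parental arrays, and THY1 and PDGFRB were at background on all arrays. Of 8 leukocyte markers 3 were tested, and PTPRC, CD3E, LYZ and NKG7 were at background throughout. CD68 rose by 1.38 on the log2 scale, while CD14 and CD79A differed by 0.11 and -0.07 and did not pass the test. The leukocyte sums were 3596 to 3929 on resistant and 1979 to 2125 on parental arrays, and differ mainly through CD68. Of 7 endothelial markers 1, PECAM1, was tested, again because the resistant arrays alone were above background, with sums of 821 to 827 on resistant and 777 to 782 on parental arrays. Each sum adds every listed marker with a probe, also those at background. On all arrays 6 of the 7 endothelial markers were at background, so their sums are mostly background signal. The part of these shifts in the respiratory chain values was not tested.

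Over all tested genes 26.6% rose and 27.5% fell, and the share that fell was 29.0% in complex I, 22.2% in complex III, 41.7% in complex IV and 44.4% in complex V. In complex I 4 of 31 tested members rose and 9 fell, in complex II 0 of 3 rose and 3 fell, in complex III 0 of 9 rose and 2 fell, in complex IV 0 of 12 rose and 5 fell, and in complex V 2 of 18 rose and 8 fell. Whether these shares differ between complexes was not tested. The median level over the tested members of complex II was 9.67 to 9.71 on the resistant arrays and 9.97 to 10.09 on the parental arrays, and that of complex IV was 11.81 to 11.94 on the resistant and 12.12 to 12.19 on the parental arrays. That of complex V was 11.62 to 11.69 on the resistant and 11.70 to 11.82 on the parental arrays. In these 3 complexes the ranges do not overlap, whereas those of complexes I and III do. For complex V the gap is narrower than the spread within either group (highest resistant 11.6901, lowest parental 11.6965).

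**Figure D2:**
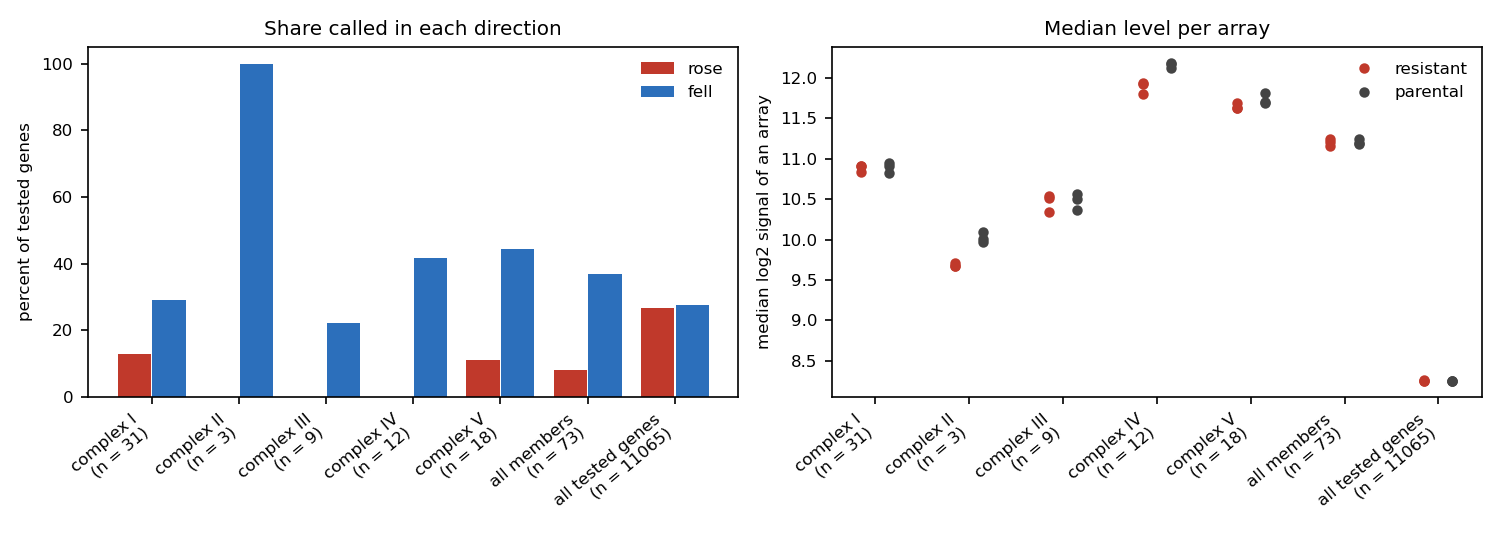
Left, percent of tested genes that rose (red) and fell (blue) in each complex, over all members and over all tested genes, with the number tested in brackets; right, the median log2 signal of each array over the same genes (red resistant, black parental). Falls exceed rises in each complex, while over all tested genes 26.6% rose and 27.5% fell. The share that fell in complex III (22.2%) is below that of all tested genes, and that in complex I (29.0%) is near it.

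Promoters of respiratory chain genes are known for sites of the factors NRF1, GABPA (an ETS-family factor) and YY1. RefSeq promoter windows (GRCh38.p14, 250 bases before to 50 after the annotated start) were matched for 66 of the 82 members. The NRF1 motif (GCGCA, any base, then GCGC) was present on either strand in 16 of the 66 windows (24.2%), against 6.05% of all 27305 RefSeq windows. The ETS motif CCGGAAGT was in 11 windows (16.7%, against 4.35% of all windows) and the YY1 motif AAGATGGC in 11 (16.7%, against 3.00%), with 0 overlaps between motifs. Among the 22 fallen members with a window, 3 held the NRF1 motif, 6 the ETS motif and 5 the YY1 motif. Among the 6 risen members the counts were 2, 0 and 2, and among the 32 that did not pass 9, 5 and 4. A match describes the letters of the window and does not show that a factor binds there.

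Complex I takes electrons from NADH. Its peripheral arm holds an NADH-oxidizing module and a quinone-reducing module, and its membrane arm pumps protons. NDUFS4, an accessory subunit of the NADH-oxidizing module that is mutated in Leigh syndrome, was the member with the largest change. NDUFS4 stood at log2 signals of 11.44, 11.39 and 11.47 in resistant cells and 10.67, 10.58 and 10.58 in parental cells. Each resistant array stood above each parental array, a rise of 0.82 on the log2 scale (1.77-fold, SE 0.0565, limma adjusted p = 4.76e-08), which is rank 569 by size among the 11065 tested genes. A single probe measures it. The 250 bases before its start are shown because this gene had the largest rise; they hold none of the 3 motifs, and the YY1 motif lies further on, from base 21 to base 28 counted from 0 at the start:
NDUFS4 (chr5:53560389-53560638, + strand): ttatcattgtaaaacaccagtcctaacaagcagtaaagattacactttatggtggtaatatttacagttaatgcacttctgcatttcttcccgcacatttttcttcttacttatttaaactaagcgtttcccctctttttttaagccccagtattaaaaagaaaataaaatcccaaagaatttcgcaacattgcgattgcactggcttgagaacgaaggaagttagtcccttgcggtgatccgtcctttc

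The largest falls in complex I were in its membrane arm. NDUFB2 gave log2 signals of 11.09, 11.02 and 10.95 on resistant and 11.64, 11.55 and 11.55 on parental arrays. NDUFB6 had log2 signals of 10.07, 10.05 and 9.99 on the resistant arrays, against 10.53, 10.46 and 10.45 on the parental arrays. NDUFB10 read 10.70, 10.56 and 10.78 on the resistant arrays (log2 signal), against 11.15, 11.08 and 11.12 on the parental arrays. These accessory subunits of the distal membrane arm were lower on each resistant array than on any parental array, and fell, with log2 differences of -0.56, -0.44 and -0.44 (SE 0.0599, 0.0559 and 0.0648; limma adjusted p = 3.69e-06, 1.60e-05 and 6.94e-05). The 2 tested probes of NDUFB6 both fell, with log2 differences of -0.44 and -0.38. NDUFB5, NDUFB8 and NDUFS5, also of the membrane arm, fell, with differences of -0.25, -0.18 and -0.21, and NDUFB11 rose by 0.17. In the membrane arm, grouped here to include NDUFA9, which can also be counted with the quinone-reducing module, 2 of 19 tested members rose and 6 fell, with a median of -0.05. These shares are 10.5% and 31.6%, where 26.6% of all tested genes rose and 27.5% fell.

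In the NADH-oxidizing module, as grouped here, 2 of 9 tested members rose (22.2%) and 3 fell (33.3%). Over all tested genes 26.6% rose and 27.5% fell. NDUFA2 stood at log2 signals of 10.88, 11.02 and 10.84 in resistant cells and 11.25, 11.17 and 11.19 in parental cells. NDUFA6 gave log2 signals of 8.96, 9.02 and 8.97 on resistant and 9.25, 9.24 and 9.31 on parental arrays. NDUFA2 and NDUFA6, accessory subunits, fell without overlap between groups, with differences of -0.29 and -0.28 (limma adjusted p = 0.00153 and 6.28e-04), opposite to NDUFS4 of the same module. NDUFA7 fell by 0.19, with overlapping groups. Of the quinone-reducing module, grouped without NDUFA9, 0 of 3 tested members rose or fell at the threshold (limma; 0 also at an unadjusted p under 0.05): NDUFS3, NDUFS7 and NDUFS8 differed by -0.10, -0.11 and -0.09. The 6 tested core subunits, among them those that carry the flavin and the iron-sulfur clusters, gave 1 call, against 54.0% of all tested genes. NDUFV1, which holds the NADH-binding site, rose by 0.15 (limma adjusted p = 0.0496), whereas NDUFS1 and NDUFV2 differed by -0.07 and 0.13.

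Several small calls in complex I changed when single arrays were left out. NDUFV1 lost its call without resistant replicate 1, 2 or 3 or parental replicate 2 or 3 (adjusted p = 0.0587 to 0.195). NDUFA9, at the junction of the arms, rose by 0.19 and lost its call without resistant replicate 2 or 3 or parental replicate 1 or 3 (0.0607 to 0.113), and NDUFB11 lost its call without resistant replicate 1 (0.087) or parental replicate 3 (0.0743). NDUFA7 lost its call without any 1 of resistant replicates 2 and 3 and parental replicates 1 to 3 (0.053 to 0.137). NDUFB9 gained a call as a rise without parental replicate 1 (0.0174), and NDUFA11 and NDUFV2 gained calls as rises and NDUFS8 as a fall without resistant replicate 3 (0.0312, 0.0417 and 0.0451). The second probe of NDUFB3, whose main probe differed by -0.01, fell by 0.20. The count of rises in complex I was 2 without resistant replicate 1, 2 without resistant replicate 2 and 1 without parental replicate 3. The probes of NDUFA5, NDUFB4, NDUFC2 and NDUFS6 were at background on all arrays or all but 1, at means of 6.79 to 6.96, and these genes were not tested.

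Complex II, succinate dehydrogenase, is the enzyme shared by the citrate cycle and the respiratory chain. SDHA, its flavoprotein, oxidizes succinate, and SDHC and SDHD anchor it in the membrane and bind ubiquinone. SDHA had log2 signals of 9.68, 9.71 and 9.67 on the resistant arrays, against 10.04, 10.12 and 10.05 on the parental arrays. SDHD read 9.68, 9.84 and 9.79 on the resistant arrays (log2 signal), against 9.97, 10.09 and 10.01 on the parental arrays. SDHC stood at log2 signals of 9.58, 9.36 and 9.49 in resistant cells and 9.69, 9.78 and 9.57 in parental cells. Resistant arrays lay below parental arrays without overlap for SDHA and SDHD, and the groups overlapped for SDHC. All 3 fell, with a log2 difference of -0.39 for SDHA (SE 0.0549, limma adjusted p = 4.73e-05), -0.25 for SDHD (SE 0.0621, adjusted p = 0.00389) and -0.20 for SDHC (SE 0.0714, adjusted p = 0.0266). The other SDHA probe fell by 0.42, and the other SDHC probe fell by 0.66, with means of 8.10 in resistant and 8.76 in parental cells. The SDHC call on the probe used was lost without resistant replicate 2 (adjusted p = 0.13) or 3 (0.0503) and without parental replicate 1 (0.0635) or 2 (0.115). SDHB, the iron-sulfur subunit, was not analysed here.

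Promoter stretches of SDHA and SDHD are shown because both fell with non-overlapping groups and hold at least 1 of the motifs searched. Members of other complexes also met these conditions, among them ATP5F1C and UQCRQ, and are not shown. The NRF1 motif was in 13.6% of the windows of fallen members and 28.1% of those of members that did not pass. Capitals mark the NRF1 motif, present at 4 places in SDHA, and in SDHD the NRF1 motif followed by the ETS motif on the opposite strand:
SDHA (chr5:218070-218319, + strand): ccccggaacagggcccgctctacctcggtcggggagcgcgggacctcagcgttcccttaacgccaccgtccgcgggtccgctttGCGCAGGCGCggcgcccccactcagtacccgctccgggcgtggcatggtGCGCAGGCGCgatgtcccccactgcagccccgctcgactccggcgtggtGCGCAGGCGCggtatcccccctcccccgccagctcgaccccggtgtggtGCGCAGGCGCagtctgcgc
SDHD (chr11:112086623-112086872, + strand): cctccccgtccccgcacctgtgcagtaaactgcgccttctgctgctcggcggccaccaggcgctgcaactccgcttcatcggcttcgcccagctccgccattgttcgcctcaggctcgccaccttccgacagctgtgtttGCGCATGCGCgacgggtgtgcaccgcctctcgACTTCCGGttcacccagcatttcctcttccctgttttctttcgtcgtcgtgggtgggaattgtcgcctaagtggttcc

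Complex III passes electrons from ubiquinol to cytochrome c, and most of its tested members did not pass the test. UQCRC2 gave log2 signals of 9.19, 9.35 and 9.43 on resistant and 9.84, 9.62 and 9.86 on parental arrays. UQCRQ had log2 signals of 12.40, 12.42 and 12.42 on the resistant arrays, against 12.62, 12.61 and 12.71 on the parental arrays. UQCRC2, a core protein of the matrix side, and UQCRQ, a small subunit beside cytochrome b, fell without overlap, with log2 differences of -0.45 and -0.23 (SE 0.0783 and 0.0557, limma adjusted p = 2.94e-04 and 0.00297). UQCRC1, the partner core protein, differed by -0.04, with a 95% confidence interval from -0.20 to 0.11. UQCRB, UQCR10 and UQCR11 differed by 0.07, 0.15 and 0.08. Of the other UQCR10 probes 1 rose by 0.20 and 1 differed by -0.01. UQCR10 gained a call without parental replicate 1 (adjusted p = 0.0332). UQCRH and its retrocopy UQCRHL, which array probes may not tell apart, differed by -0.07 and 0.03, while the second UQCRH probe fell by 0.24. The pseudogene UQCRBP1, a copy of UQCRB, differed by 0.10 and did not pass. UQCRFS1, the iron-sulfur subunit, was not analysed here.

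Complex IV, cytochrome c oxidase, hands electrons to oxygen. Its falls lay in the subunits COX4I1, COX5A, COX5B, COX6B2 and COX7A2L, while the other 7 tested members stayed within 0.10 of 0. COX4I1 and COX5A are the nuclear subunits that join the mitochondrially encoded core early in assembly, COX5B is a zinc-binding subunit of the matrix side, and COX7A2L links complexes III and IV in supercomplexes. COX4I1 read 12.36, 12.30 and 12.38 on the resistant arrays (log2 signal), against 12.83, 12.80 and 12.82 on the parental arrays. COX5A stood at log2 signals of 11.68, 11.78 and 11.82 in resistant cells and 12.01, 11.95 and 12.04 in parental cells. COX5B gave log2 signals of 11.95, 11.98 and 11.74 on resistant and 12.45, 12.56 and 12.41 on parental arrays. For these genes each resistant array lay below each parental array. COX7A2L had log2 signals of 10.64, 10.56 and 10.50 on the resistant arrays, against 11.10, 10.99 and 11.03 on the parental arrays. Its groups did not overlap either. COX5B fell by 0.58 (log2 difference; SE 0.0717, limma adjusted p = 1.37e-05). COX7A2L, COX4I1 and COX5A fell with differences of -0.47, -0.47 and -0.24 (SE 0.0597, 0.0545 and 0.0591; limma adjusted p = 1.66e-05, 7.25e-06 and 0.00391). The promoter stretch of COX5B, the member of complex IV with the largest fall, holds the ETS motif, in capitals, and a further ETS match spans its start:
COX5B (chr2:97645812-97646061, + strand): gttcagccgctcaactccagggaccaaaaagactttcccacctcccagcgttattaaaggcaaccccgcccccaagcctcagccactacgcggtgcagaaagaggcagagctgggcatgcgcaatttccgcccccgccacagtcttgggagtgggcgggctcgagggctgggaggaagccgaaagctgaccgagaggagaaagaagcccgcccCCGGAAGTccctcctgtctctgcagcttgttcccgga

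**Figure D3:**
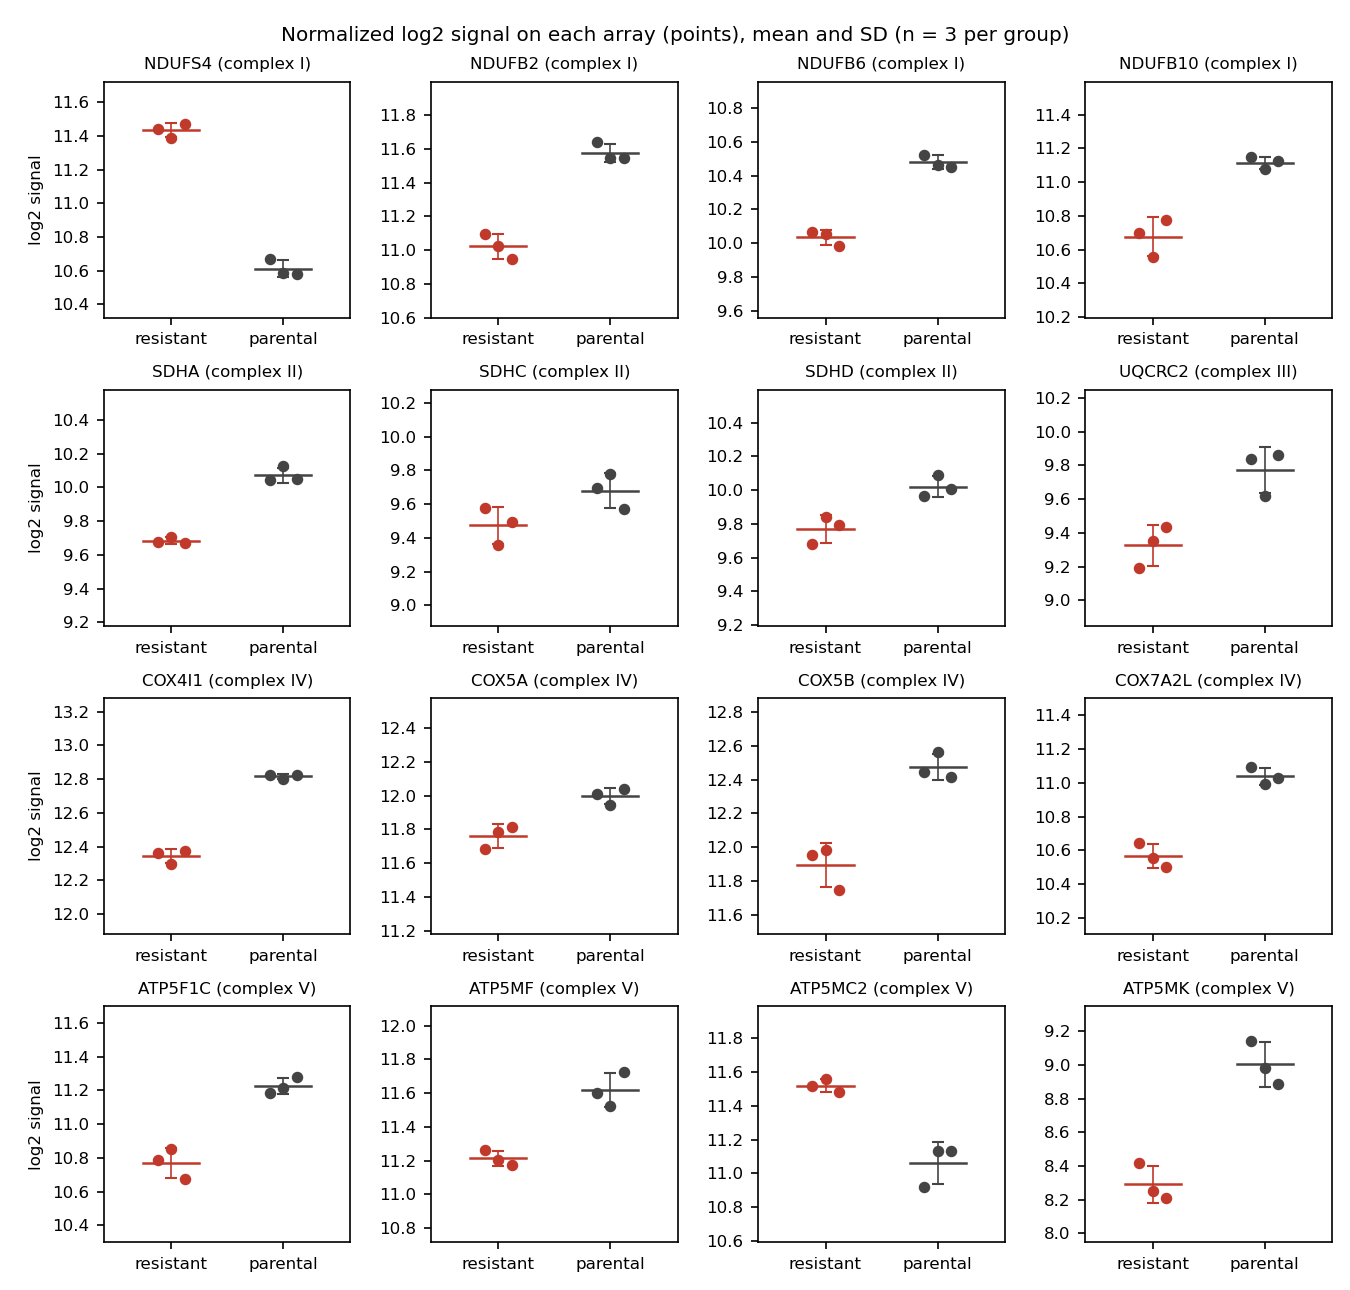
Normalized log2 signal (y axis, 1.4 units high in each panel) of 16 members on each of 3 resistant (red, left) and 3 parental (black, right) arrays, with the mean (line) and SD (bar). NDUFS4 and ATP5MC2 lie higher on the resistant arrays, the other members lie lower, and the groups overlap for SDHC.

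Several subunits of complex IV exist as isoforms, with a ubiquitous form and forms found mainly in lung, heart, muscle or testis. In both lines the ubiquitous forms were above background on all arrays. COX6A1 read 11.25, 11.29 and 11.15 on the resistant arrays (log2 signal), against 11.25, 11.26 and 11.29 on the parental arrays. COX6B1 stood at log2 signals of 11.93, 11.88 and 11.80 in resistant cells and 12.01, 11.91 and 11.98 in parental cells. COX7A2 gave log2 signals of 12.86, 12.86 and 12.71 on resistant and 12.96, 12.83 and 12.93 on parental arrays. These ubiquitous subunits overlapped between groups and differed by -0.03, -0.10 and -0.10. COX7B had log2 signals of 11.55, 11.56 and 11.71 on the resistant arrays, against 11.66, 11.66 and 11.47 on the parental arrays. COX8A read 12.87, 12.93 and 12.86 on the resistant arrays (log2 signal), against 12.83, 12.84 and 12.93 on the parental arrays. COX7B and COX8A overlapped as well, with differences of 0.01 and 0.02. COX6C and COX7C differed by 0.05 and 0.02.

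The tissue-restricted forms were not well above background. COX4I2 stood at log2 signals of 6.76, 6.72 and 6.78 in resistant cells and 6.75, 6.73 and 6.82 in parental cells. COX6A2 gave log2 signals of 6.93, 6.75 and 6.85 on resistant and 6.78, 6.78 and 6.82 on parental arrays. COX7A1 had log2 signals of 6.78, 6.73 and 6.72 on the resistant arrays, against 6.67, 6.73 and 6.76 on the parental arrays. COX4I2, a form of subunit 4 induced by low oxygen, and the muscle forms COX6A2 and COX7A1 were thus below the limit on each array and were not tested. COX7B2 read 6.84, 6.70 and 6.70 on the resistant arrays (log2 signal), against 6.77, 6.73 and 6.72 on the parental arrays. COX8C stood at log2 signals of 6.73, 6.73 and 6.75 in resistant cells and 6.65, 6.73 and 6.74 in parental cells. These testis forms were below the limit too. COX6B2, the testis form of COX6B1, was the exception. COX6B2 gave log2 signals of 7.10, 7.06 and 7.09 on resistant and 7.22, 7.21 and 7.45 on parental arrays. It fell by 0.21 (limma adjusted p = 0.0175), close to the limit, and lost its call without resistant replicate 2 (0.0557) or parental replicate 3 (0.0879); its other probe was at background.

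**Figure D4:**
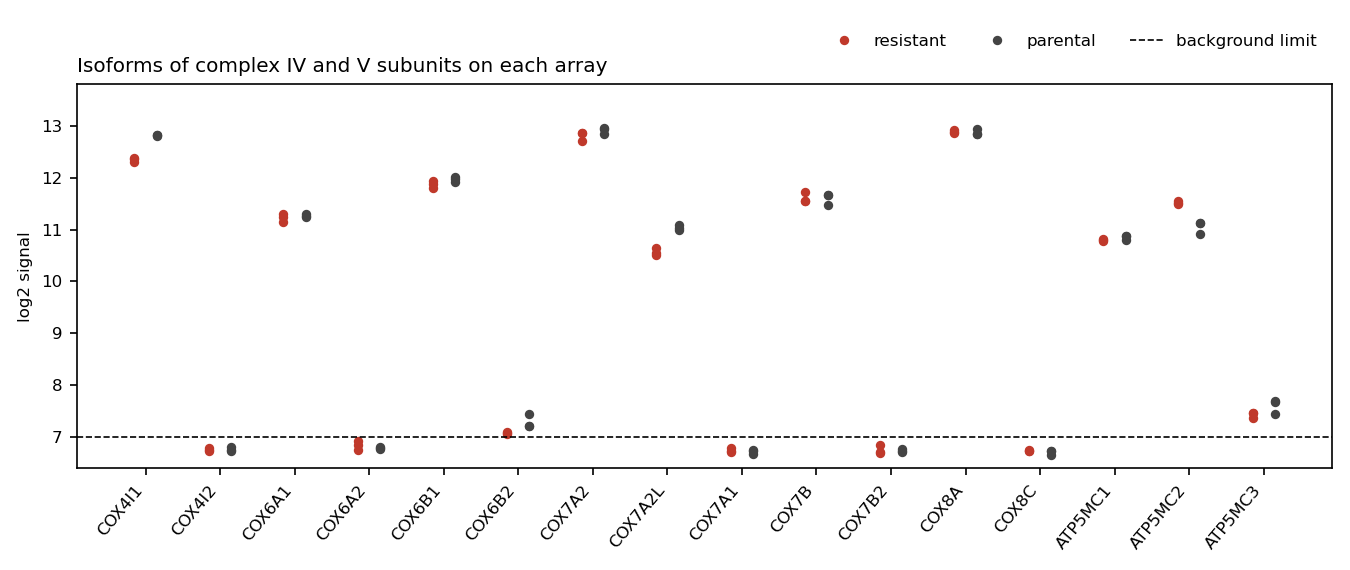
Log2 signal (y axis) of isoforms of complex IV subunits and of the 3 genes of ATP synthase subunit c on each resistant (red, left) and parental (black, right) array; the dashed line is the background limit. COX4I2, COX6A2, COX7A1, COX7B2 and COX8C lie below the limit on all 6 arrays, and ATP5MC2 is higher and COX4I1 and COX7A2L are lower on the resistant arrays.

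Complex V makes ATP with a rotor of c subunits in the membrane, a catalytic F1 head and a peripheral stalk that holds the head still. ATP5MK, a small membrane subunit needed for stable synthase dimers, had the largest fall of all members. ATP5MK had log2 signals of 8.42, 8.25 and 8.21 on the resistant arrays, against 9.14, 8.98 and 8.88 on the parental arrays. The groups did not overlap, and the fall was 0.71 on the log2 scale (1.64-fold, SE 0.0756, limma adjusted p = 3.34e-06), rank 809 by size among all tested genes. Its promoter stretch is shown with the ETS motif in capitals:
ATP5MK (chr10:103396476-103396725, - strand): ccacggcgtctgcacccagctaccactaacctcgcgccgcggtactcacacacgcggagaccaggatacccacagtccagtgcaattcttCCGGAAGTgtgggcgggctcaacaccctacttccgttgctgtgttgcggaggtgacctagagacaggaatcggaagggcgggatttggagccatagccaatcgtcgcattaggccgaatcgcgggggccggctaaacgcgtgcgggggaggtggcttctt

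Other membrane subunits of complex V went both ways. ATP5MF read 11.26, 11.20 and 11.17 on the resistant arrays (log2 signal), against 11.60, 11.52 and 11.73 on the parental arrays. ATP5MF, subunit f, fell by 0.40 without overlap (SE 0.0634, limma adjusted p = 1.17e-04), and its other probe fell by 0.39. ATP5MG, subunit g, fell by 0.17, ATP5MJ differed by -0.07, and ATP5ME, subunit e, rose by 0.19 (limma adjusted p = 0.00773), with its second tested probe rising by 0.31. The 3 genes ATP5MC1, ATP5MC2 and ATP5MC3 encode the same mature subunit c behind different import sequences. ATP5MC2 stood at log2 signals of 11.52, 11.56 and 11.48 in resistant cells and 10.92, 11.13 and 11.13 in parental cells. ATP5MC1 gave log2 signals of 10.82, 10.78 and 10.79 on resistant and 10.88, 10.79 and 10.88 on parental arrays. ATP5MC3 had log2 signals of 7.37, 7.47 and 7.47 on the resistant arrays, against 7.67, 7.45 and 7.70 on the parental arrays. ATP5MC2 was higher on each resistant array than on any parental array and rose by 0.46 (1.37-fold, SE 0.0665, limma adjusted p = 5.98e-05), while the groups overlapped for ATP5MC1 and ATP5MC3, which differed by -0.05 and -0.17. The second tested ATP5MC2 probe, at a mean of 7.02 in resistant and 7.05 in parental cells, differed by -0.04. ATP5MC3 gained a call without parental replicate 2 (adjusted p = 0.00642).

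In the F1 head 3 of 5 tested subunits fell and 0 rose, where 27.5% of all tested genes fell and 26.6% rose. ATP5F1C read 10.79, 10.85 and 10.68 on the resistant arrays (log2 signal), against 11.18, 11.21 and 11.28 on the parental arrays. ATP5F1A stood at log2 signals of 12.25, 12.30 and 12.35 in resistant cells and 12.53, 12.61 and 12.53 in parental cells. ATP5F1C, the gamma subunit that forms the rotor shaft, fell by 0.45 (SE 0.0616, limma adjusted p = 3.24e-05), and ATP5F1A, the alpha subunit, fell by 0.26 (SE 0.0567, adjusted p = 0.00177), both without overlap. The other ATP5F1A probe differed by 0.01, and the mean of the probes did not pass (adjusted p = 0.0635). ATP5F1B, the catalytic beta subunit, at means of 13.24 in resistant and 13.39 in parental cells, fell by 0.15 (limma adjusted p = 0.0481), a call lost without resistant replicate 1 or 2 or parental replicate 1 or 2 (0.121 to 0.159). ATP5F1D and ATP5F1E differed by -0.07 and -0.10. ATP5F1E gained a call without parental replicate 2 (0.034), and the pseudogene ATP5F1EP2, its near-identical copy, differed by -0.03.

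In the peripheral stalk 2 of 4 tested subunits fell and 0 rose, where 27.5% of all tested genes fell and 26.6% rose. ATP5PF gave log2 signals of 11.73, 11.82 and 11.78 on resistant and 12.09, 12.05 and 12.01 on parental arrays. ATP5PF, coupling factor 6, was lower on each resistant array than on any parental array and fell by 0.27 (limma adjusted p = 0.00105); its other 2 probes fell too, with differences of -0.26 and -0.22. ATP5PB, subunit b, fell by 0.17, and its second probe fell by 0.26, while ATP5PD and ATP5PO differed by -0.05 and -0.02. Without resistant replicate 2 the calls of ATP5PB (adjusted p = 0.0719), ATP5MG (0.0546) and ATP5F1B were lost, and 5 members of complex V fell instead of 8. ATP5PB lost its call without parental replicate 3 too (0.0673), and ATP5MG lost its call without resistant replicate 3 (0.0507) or parental replicate 2 (0.0626) or 3 (0.0756), and its other probe differed by 0.16. Of the 19 members with more than 1 tested probe 13 gave the same call on each, 6 differed in passing the test and 0 had calls in opposite directions. These probe calls come from a separate limma fit over 14762 named probes. In that fit NDUFV1 and ATP5F1B, called over genes, did not pass (adjusted p = 0.0534 and 0.0518).

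Other genes of the same pathway were read from lists chosen with earlier results of these data known. Over 86 tested genes of 7 lists 17 rose and 32 fell, with a median of -0.09, where 26.6% of all tested genes rose and 27.5% fell. Complex II and III assembly factors (30.0% in each direction) and complex IV assembly factors (23.8% in each direction) lay near those shares. Complex I assembly factors gave 2 rises and 6 falls among 17 tested, and complex II and III assembly factors 3 and 3 among 10. Among 21 tested complex IV assembly factors 5 rose and 5 fell (3 fell without resistant replicate 2 and 3 without parental replicate 1), and among 5 tested factors of complex V 1 rose and 1 fell. The partners NDUFAF3 and NDUFAF4, which act together early in complex I assembly, went opposite ways, with a rise of 0.44 and a fall of 0.38 (limma adjusted p = 1.44e-04 and 1.26e-04). COA1 and NDUFAF8 fell, with differences of -0.40 and -0.35, but with the mean of its probes COA1 differed by -0.12 and did not pass (adjusted p = 0.0875). LYRM7, a chaperone of the complex III iron-sulfur protein, fell by 0.53 and SDHAF1 fell by 0.19, while TTC19, which clears fragments of that protein, rose by 0.57 and UQCC1 by 0.35.

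Among complex IV factors, COX16 showed a rise of 0.75 and COX11, a copper insertion factor, one of 0.34. COX16 had log2 signals of 10.75, 10.84 and 10.82 on the resistant arrays, against 10.15, 10.04 and 9.97 on the parental arrays. LRPPRC read 8.48, 8.37 and 8.27 on the resistant arrays (log2 signal), against 8.91, 9.01 and 8.93 on the parental arrays. LRPPRC, which stabilizes mitochondrial messenger RNA, fell by 0.58 (limma adjusted p = 4.80e-06) and COA5 fell by 0.36, while COX16 had a limma adjusted p of 2.97e-07; neither LRPPRC nor COX16 overlapped between groups. For complex V, TMEM70 fell by 0.35 and FMC1 rose by 0.36, a rise that its probe mean turned to -0.09. ATPAF1, ATPAF2 and the inhibitor ATP5IF1 differed by -0.14, -0.10 and 0.09. Of subunits outside the naming rule, NDUFAB1, the mitochondrial acyl carrier protein, fell by 0.34, while CYC1, cytochrome c1, differed by -0.11 and COXFA4, formerly NDUFA4 and looked up after the values were seen, by -0.07.

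Mobile carriers link the complexes. Of 15 tested electron carrier genes 4 rose (26.7%) and 7 fell (46.7%), against 26.6% and 27.5% of all tested genes. COQ9 stood at log2 signals of 9.49, 9.60 and 9.54 in resistant cells and 10.54, 10.59 and 10.63 in parental cells. COQ3 gave log2 signals of 8.83, 9.03 and 9.05 on resistant and 9.79, 9.63 and 9.75 on parental arrays. PDSS1 had log2 signals of 8.13, 8.26 and 8.27 on the resistant arrays, against 9.06, 8.76 and 8.88 on the parental arrays. These genes of ubiquinone synthesis were lower on each resistant array, and COQ9, a lipid-binding protein of the pathway, fell by 1.04 (2.06-fold, limma adjusted p = 4.90e-09), a larger change than that of any member. COQ3, a methyltransferase, fell by 0.75 and PDSS1, which makes the side chain, fell by 0.68 (limma adjusted p = 9.24e-07 and 4.68e-06). PDSS2 and COQ7, of the same pathway, also fell without overlap, with differences of -0.27 and -0.23 (limma adjusted p = 0.00125 and 0.0064). COQ5, COQ6 and COQ8A, of the same pathway, rose by 0.30, 0.27 and 0.34. CYCS, cytochrome c itself, fell by 0.30 (limma adjusted p = 5.49e-04), and ETFDH, which feeds electrons from fatty acid oxidation to ubiquinone, rose by 0.40, while ETFA, a subunit of the flavoprotein that delivers those electrons, fell by 0.44.

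Of 16 tested mitochondrial biogenesis genes 2 rose and 9 fell, against 26.6% and 27.5% of all tested genes. Requiring signal above background on all 6 arrays left 7 falls. PPARGC1A read 6.94, 6.95 and 6.96 on the resistant arrays (log2 signal), against 7.52, 7.38 and 7.55 on the parental arrays. PPARGC1A, the coactivator PGC-1alpha, was above background on the 3 parental arrays and on 0 of 3 resistant arrays, so it was at least 1.40-fold lower, and PPARGC1B was likewise at least 1.27-fold lower. Both passed the filter only through the parental arrays, where they were higher, so their calls are not independent of the filter. PPRC1 stood at log2 signals of 9.24, 9.10 and 9.19 in resistant cells and 9.72, 9.72 and 9.71 in parental cells. TFAM gave log2 signals of 8.82, 8.97 and 8.89 on resistant and 9.38, 9.39 and 9.43 on parental arrays. SSBP1 had log2 signals of 10.72, 10.90 and 10.80 on the resistant arrays, against 11.25, 11.35 and 11.26 on the parental arrays. The related coactivator PPRC1, the mitochondrial DNA packaging factor TFAM and the single-strand binding protein SSBP1 fell without overlap, with differences of -0.55, -0.51 and -0.48 (limma adjusted p = 2.93e-06, 7.47e-06 and 2.01e-05). The rises were TFB1M and POLG2, by 0.32 and 0.23. Of the factors whose motifs were searched, YY1 and GABPA differed by 0.02 and 0.11 and did not pass the test. NRF1 was not tested, being above background on 1 of 6 arrays. GABPB1, in the same list as GABPA, fell without overlap, with a difference of -0.22 (limma adjusted p = 0.0044).

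**Figure D5:**
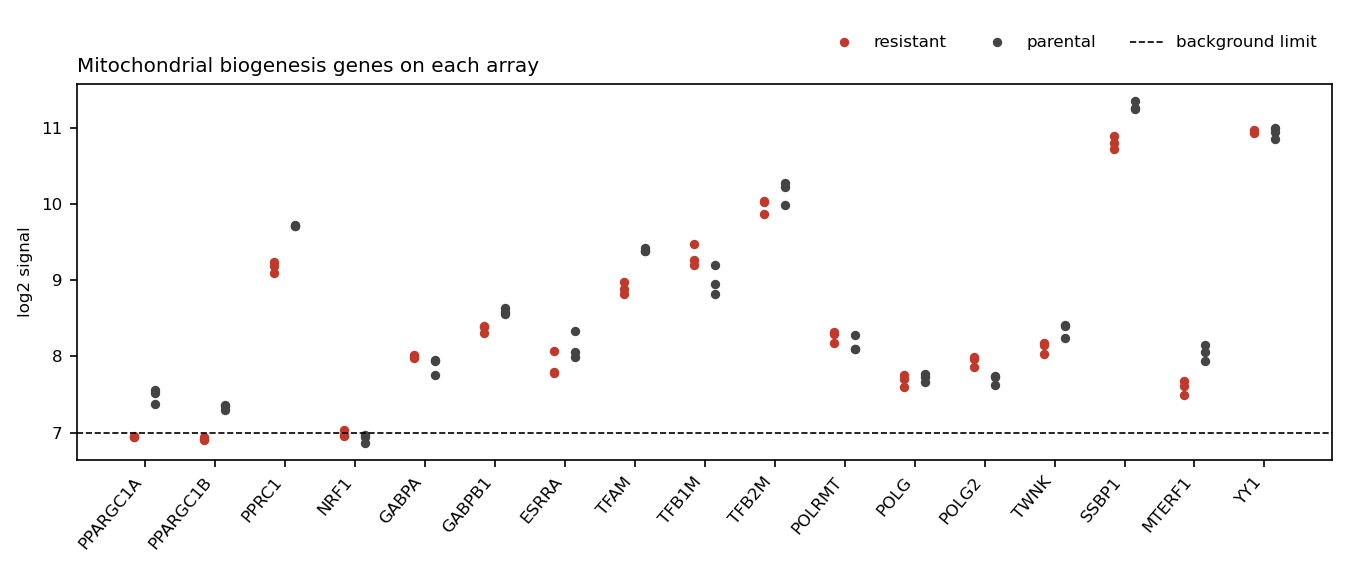
Log2 signal (y axis) of 17 mitochondrial biogenesis genes on each resistant (red, left) and parental (black, right) array; the dashed line is the background limit. PPARGC1A and PPARGC1B lie below the limit on the resistant arrays and above it on the parental arrays, and PPRC1, TFAM and SSBP1 are lower on the resistant arrays.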

How the data were processed

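RNA of 3 resistant and 3 parental HN5 samples was hybridised to Illumina arrays. The values used are the normalized log2 signals the authors deposited, 1 per probe and sample. Which software, background step and normalization made them is not given in the sources used here. Base 2 was read from their range (6.51 to 13.76). Sorted values differed by at most 0.00434 from array to array, so a change is relative to the rest of its array. The signals deposited without normalization were left out: their 12 columns of per-sample values name no sample.

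Of 47230 probes 30112 had 1 gene symbol, 8 several and 17110 none; Entrez IDs updated 0 symbols. Probes above background on at least 3 of 6 arrays were kept, and the highest-mean probe stood for its gene. With limma (version 3.58.1, R 4.3.3), lmFit and eBayes compared resistant with parental arrays without a replicate block, with Benjamini-Hochberg adjustment over 11065 genes at 0.05. Second probes of a gene were called from a separate fit of the same form, adjusted over the 14762 named probes that were kept. The fit was also run on simulated data with far fewer changed genes than were called here. That run therefore does not give the error rate of these calls. The number of arrays limits the precision (median standard error 0.0621 on the log2 scale). Correlations across probes were 0.996 to 0.997 within groups and 0.978 to 0.980 between them. A group at background on all its arrays gives only a bound, the other mean over the limits.

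The members and lists were chosen with earlier results of these data known. Values of every array are given for up to 6 called members per complex with the smallest adjusted p, the largest rise and fall, complex II and the isoform sets. Related lists are shown by up to 4 genes with the smallest adjusted p and 6 set genes, of which NDUFA4L2 was not analysed here. COQ5, COQ6, COQ7, COQ8A, PDSS2, ETFA, TFB1M, POLG2, PPARGC1B, YY1, GABPA and GABPB1 were added after their values were seen. Alternatives left out each array, added the replicate block, changed the filter, probe rule, normalization, moderation or weights, or subtracted the background mode (floor 16). Promoter sequences are from RefSeq (GRCh38.p14).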

Additional observations from a re-analysis of the deposited data

How the results depend on the processing

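Counts and medians over the members were recomputed under 15 alternatives. Of the 27 falls 18 kept their call in each, of the 6 rises 2 did (NDUFS4 and ATP5MC2), and of the 40 members that did not pass 33 stayed so. Leaving out each array in turn gave 3 to 7 rises among the members (6 with all arrays), 1 to 4 in complex I (4), 0 to 1 in complex III (0) and 5 to 8 falls in complex V (8), with the arrays named beside each result. Subtracting the background mode gave 2 rises among the members, 1 in complex I and 1 in complex V, and 5 falls in complex V; the cause was not tested. It ended the calls of ATP5ME (adjusted p = 0.0504), NDUFB8 (0.0593), NDUFS5 (0.0613), NDUFB11 (0.075), ATP5PB (0.0847), ATP5MG (0.0898), SDHC (0.0911), NDUFA9 (0.098), NDUFA7 (0.0999), NDUFV1 (0.142) and ATP5F1B (0.151). NDUFV1 also lost its call with no filter, the strict filter, the intensity trend and array weights (0.0512 to 0.0555), and ATP5F1B with the strict filter, cyclic loess and median centring (0.0514 to 0.0896). The mean of each gene's probes moved the complex II median to -0.40 (-0.25 with the highest-mean probe), since the second SDHC probe fell further, and turned FMC1 to -0.0926 (adjusted p = 0.146), against 0.36 with the highest-mean probe. With the replicate number as a block 6 members rose and 27 fell, with ATP5F1B lost (adjusted p = 0.06) and ATP5MC3 gained (0.0463). Same-numbered arrays correlated in their deviations at 0.146, 0.00302 and 0.0878, and differently numbered arrays at -0.199 to 0.128. Not every array correlated best with its own number. With 3 arrays per group these values cannot decide whether the numbers pair the samples. Signal over background limits what can be measured for NDUFS1, NDUFB1 and COX6B2, which lay just above the limit.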
